A study of Mus musculus with 10 samples.

Results

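A set of 10 genes of the yolk sac and fetal liver was followed across 10 mouse teratomas: Afp, Alb, Ttr, Apoa1, Apoa4, Apob, Fga, Fgb, Fgg and Amn. They were chosen by name and are 10 of the 18820 genes measured. Each gene is given by a probe set annotated to it alone, the one with the highest mean where it had several. The teratomas came from 4 P81S samples, labelled apoptosis-resistant, 3 R167Q samples and 3 wildtype samples, both labelled apoptotic, measured on 1 array each. By their labels, all groups share their make-up: Vhl-/- J1 embryonic stem cells with a human VHL cDNA of that genotype. The tumours grew under the skin of both flanks of female nude mice and were taken at 1 cm. By the design text the P81S arrays represent 2 clones, 2 arrays of each, without a key to which is which. Tumours may share a mouse, so the p-values measure only the spread between these tumours. The promoter that drives the transgene is not given in the sources used here.

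A teratoma holds disordered tissues formed by pluripotent cells, extraembryonic endoderm often among them. In the mouse embryo the visceral endoderm of the yolk sac takes up maternal nutrients and secretes alpha-fetoprotein, transthyretin and apolipoproteins; the fetal liver later secretes these together with albumin and fibrinogen. C/EBP and other liver factors drive many of these genes. Transthyretin is also made by the choroid plexus of the brain, and Apoa1, Apoa4 and Apob by the gut. Amnionless, the product of Amn, is not secreted: it anchors the endocytic receptor cubilin in the membrane. In whole tumours, fewer cells of a type and less RNA per cell cannot be told apart.

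Alb and Afp lie side by side, as do the fibrinogen genes, and neighbours in both clusters had unlike values in these tumours, so the 150 bases before their annotated starts are shown. The sequences are from RefSeq, build GRCm38.p6, 5′ to 3′ on the strand of the gene, at chr5:90460720-90460869 (plus strand) for Alb, chr5:90490564-90490713 (plus strand) for Afp, chr3:83026003-83026152 (plus strand) for Fga, chr3:83049864-83050013 (minus strand) for Fgb and chr3:83007574-83007723 (plus strand) for Fgg. Capitals mark matches to the C/EBP motif TTGCNNAA on either strand.
Alb: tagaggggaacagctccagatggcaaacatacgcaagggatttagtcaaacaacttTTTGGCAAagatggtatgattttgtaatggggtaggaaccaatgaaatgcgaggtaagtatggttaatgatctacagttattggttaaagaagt
Afp: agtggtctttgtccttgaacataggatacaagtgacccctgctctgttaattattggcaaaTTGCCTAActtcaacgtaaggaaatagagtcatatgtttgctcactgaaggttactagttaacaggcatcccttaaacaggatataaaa
Fga: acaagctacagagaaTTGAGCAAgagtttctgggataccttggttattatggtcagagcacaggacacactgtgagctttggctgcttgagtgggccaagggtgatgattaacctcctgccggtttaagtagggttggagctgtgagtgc
Fgb: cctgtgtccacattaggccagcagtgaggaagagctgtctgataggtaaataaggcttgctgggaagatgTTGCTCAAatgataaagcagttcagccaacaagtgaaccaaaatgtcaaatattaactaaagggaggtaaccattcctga
Fgg: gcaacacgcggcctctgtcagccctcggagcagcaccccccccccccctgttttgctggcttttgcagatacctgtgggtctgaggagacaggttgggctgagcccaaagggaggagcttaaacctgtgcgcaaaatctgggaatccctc
Promoters of 9 members were searched, over the 250 bases before the start. The C/EBP motif was in 5 of 9 (Alb, Afp, Fga, Fgb and Apob), against 9.56% of 32851 promoters of that length. The HNF4 motif CAAAGTC was in 1 of 9 (Alb, 3.84% of all), and the FOXA motif TGTTTAC and the GATA motif AGATAA were in 0 of 9 (3.17% and 9.99% of all). Each motif was searched only as spelled here, so other spellings of these sites were not counted.

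Values are log2 expression, and a difference of 1 is a 2-fold difference. Array medians lay at 6.97 to 7.11 log2, and which probes are above background is unknown here; 5.98 log2, the median of the array's unannotated control block, serves as a mark of dimness only. P81S replicate 1 stood apart: on the second principal component (15.3% of the variance) it lay at 54.9 and the other arrays at -21.7 to 11.5, so the members' P81S differences from wildtype and the list counts are given with and without it. Vhl itself, for which the position of the deleted part relative to the probes is not known here, so that it does not check the labels, read 8.49, 8.77, 8.53 and 8.90 log2 in P81S, 6.83, 6.93 and 7.21 in R167Q, and 6.94, 6.95 and 6.85 in wildtype, high in every P81S array. The mean of the Y-linked genes Eif2s3y, Kdm5d and Uty was 8.42 to 9.28 log2 in P81S, 9.12 to 9.52 in R167Q and 4.26 to 4.70 in wildtype, and Xist was 6.79 to 8.10 in P81S, 7.98 to 8.57 in R167Q and 7.001 to 8.06 in wildtype. The wildtype tumours thus differ from both other groups in Y-linked signal as well as in genotype, although all groups are labelled as J1-derived. For every difference from wildtype given here, genotype and Y-linked signal cannot be told apart.

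Fgb and Afp were lower in P81S than in wildtype, and no member was higher. A gene is called at a Benjamini-Hochberg adjusted p under 0.05 over all 18820 genes in 1 limma fit. By that rule 2 of 10 members were lower and 0 higher, against 17.5% and 17.2% of all genes, so the members' share was near the background. Their median difference was -0.36 log2, beside 0.015 over all genes. With P81S replicate 1 left out, 4 of 10 were lower (Afp, Fgb, Apoa1 and Ttr) and 0 higher, against 18.6% and 18.3% of all genes. The median was then -0.85 log2, beside -0.0035, and 9 of 10 differences were negative with the probe sets used. The same 4 members had all remaining P81S arrays under all wildtype arrays, as had 24.8% of all genes.

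**Figure D1:**
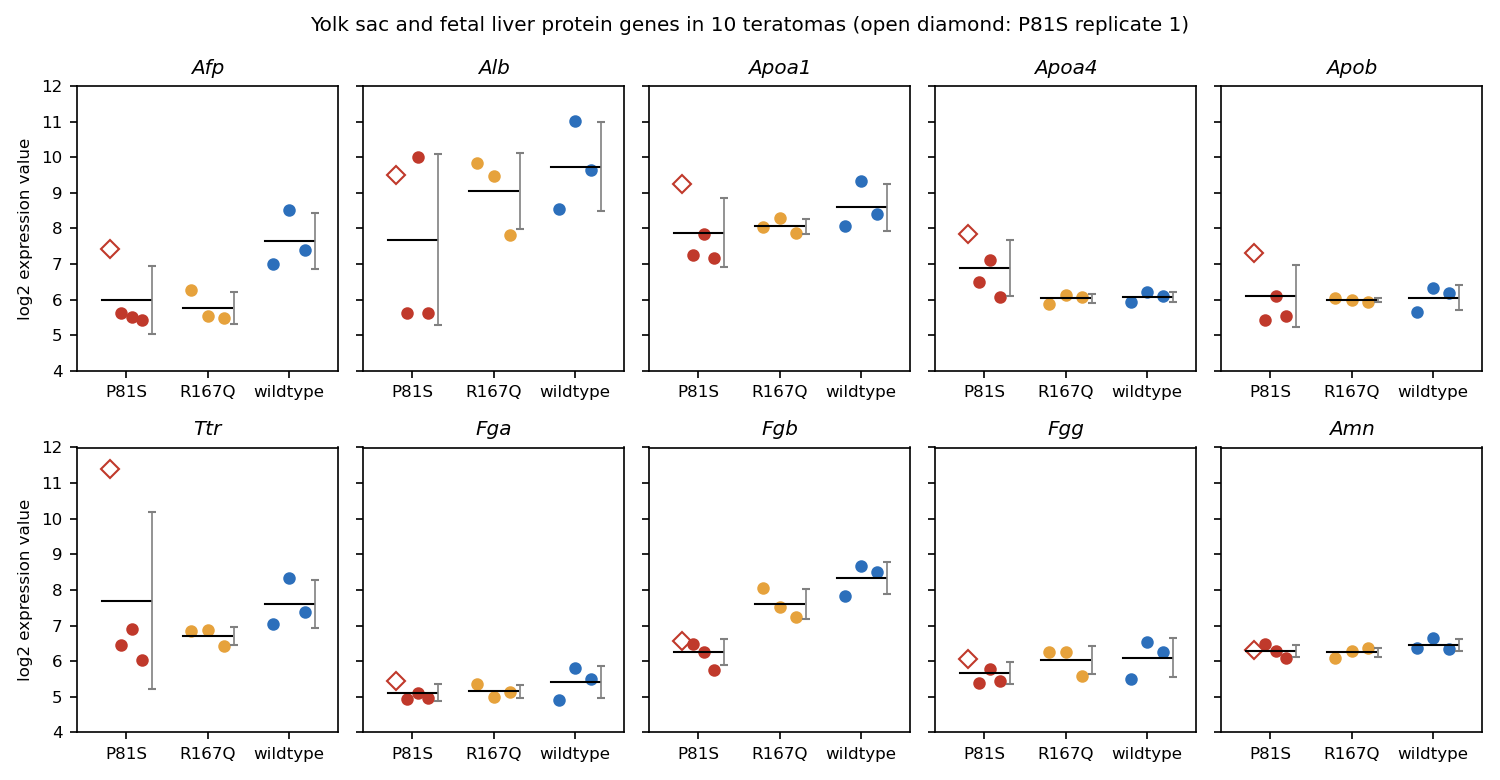
Log2 expression value (y axis) of each member in every array, by group (x axis). Points are arrays, the open diamond is P81S replicate 1, black lines are group means and grey bars reach 1 SD to each side. All P81S arrays of Fgb lie under the R167Q and wildtype arrays, and Ttr reaches 11.4 log2 in P81S replicate 1.

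Afp, which encodes the fetal counterpart of albumin, read 7.43, 5.62, 5.52 and 5.43 log2 in P81S, 6.27, 5.53 and 5.48 in R167Q, and 7.002, 8.52 and 7.40 in wildtype. P81S replicate 1 lay inside the wildtype range, and the other P81S arrays lay under it. Those arrays and R167Q replicates 2 and 3 were also under the control block's median. Afp was 3.12-fold lower in P81S (-1.64 ± 0.50 log2, adjusted p = 0.0250) and 4.33-fold lower once replicate 1 was set aside (-2.12 ± 0.35 log2, adjusted p = 0.000893). The call ended without P81S replicate 2, 3 or 4 (adjusted p = 0.0559, 0.0643 and 0.0617) and without wildtype replicate 2 or 3 (0.117 and 0.0537).

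Alb, the gene of the main plasma protein, split the P81S tumours: it read 9.51, 5.62, 9.99 and 5.62 log2 in P81S, 9.83, 9.46 and 7.83 in R167Q, and 8.54, 11.02 and 9.65 in wildtype. P81S replicates 2 and 4 were the lowest of all arrays and under the control block's median, while replicates 1 and 3 lay inside the wildtype range. Its P81S SD of 2.39 log2 was larger than that of 99.97% of genes. The difference from wildtype, -2.05 ± 1.10 log2, did not pass (adjusted p = 0.184, 95% interval -4.49 to 0.38), nor did the one without replicate 1 (-2.66 ± 1.08 log2, adjusted p = 0.0804). In P81S replicate 3, Alb was high while the adjacent Afp was low. R167Q replicates 1 and 2 also had Alb inside the wildtype range and Afp, at 6.27 and 5.53 log2, under every wildtype array.

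Ttr encodes transthyretin, a carrier of thyroid hormone and of retinol-binding protein. It read 11.39, 6.46, 6.90 and 6.04 log2 in P81S, 6.84, 6.87 and 6.42 in R167Q, and 7.05, 8.35 and 7.38 in wildtype. P81S replicate 1 was the highest of all arrays, and the other P81S arrays lay under the wildtype arrays. The means were 7.70 ± 2.49 log2 in P81S (SD, n = 4) and 7.59 ± 0.67 in wildtype (SD, n = 3), and the difference of 0.10 ± 1.03 did not pass (adjusted p = 0.953, 95% interval -2.17 to 2.38). Setting replicate 1 aside turned the sign: Ttr was then 2.19-fold lower (-1.13 ± 0.32 log2, adjusted p = 0.0187).

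Among the apolipoproteins, Apoa1, the main protein of high-density lipoprotein, read 9.25, 7.25, 7.85 and 7.16 log2 in P81S, 8.04, 8.29 and 7.87 in R167Q, and 8.06, 9.32 and 8.41 in wildtype. P81S replicate 1 exceeded 2 of the 3 wildtype arrays, and the others lay under all of them. The difference was -0.72 ± 0.46 log2 (adjusted p = 0.264), and with replicate 1 set aside Apoa1 was 2.26-fold lower (-1.18 ± 0.30 log2, adjusted p = 0.0107).

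Apoa4, which the gut secretes during fat absorption, read 7.86, 6.49, 7.13 and 6.07 log2 in P81S, 5.89, 6.14 and 6.08 in R167Q, and 5.94, 6.21 and 6.09 in wildtype. P81S replicates 1 to 3 lay above all R167Q and wildtype arrays, and replicate 4 among them. The differences of 0.80 ± 0.34 log2 from wildtype and 0.85 ± 0.34 from R167Q did not pass (adjusted p = 0.0923 and 0.0998). Without P81S replicate 1 they were 0.48 ± 0.23 log2 from wildtype and 0.52 ± 0.23 from R167Q (adjusted p = 0.140 and 0.132). They passed with array weights (0.0107 and 0.0160), with replicate number as block (0.0314 and 0.0427) and without P81S replicate 4 (0.0170 and 0.0234). The other probe set of the gene read 6.20, 5.63, 5.59 and 5.73 log2 in P81S, 5.72, 5.66 and 5.28 in R167Q, and 5.59, 6.15 and 6.19 in wildtype, with overlapping groups, and the mean of both sets differed from wildtype by 0.31 log2 (adjusted p = 0.370).

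Apob, the structural protein gene of low-density lipoprotein, read 7.31, 5.43, 6.12 and 5.56 log2 in P81S, 6.06, 5.99 and 5.95 in R167Q, and 5.66, 6.32 and 6.19 in wildtype. P81S replicate 1 was the highest array, and P81S replicates 2 and 4 were the lowest. The difference from wildtype was 0.048 ± 0.38 log2 (adjusted p = 0.940, 95% interval -0.79 to 0.89), and without replicate 1 it was -0.35 ± 0.22 (adjusted p = 0.236). Apoc3, a lipoprotein gene that lies between Apoa1 and Apoa4, read 6.55, 5.70, 6.77 and 5.47 log2 in P81S, 6.18, 6.15 and 6.02 in R167Q, and 5.88, 5.85 and 6.20 in wildtype; like Alb it was high in P81S replicates 1 and 3.

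The fibrinogen chains are subunits of a single clotting protein, and only the beta chain passed the test. Fgb read 6.58, 6.47, 6.26 and 5.76 log2 in P81S, 8.06, 7.52 and 7.23 in R167Q, and 7.82, 8.68 and 8.52 in wildtype. Every P81S array, replicate 1 included, lay under every R167Q and wildtype array, as 20.7% of all genes did against wildtype and 14.2% against R167Q. In P81S, Fgb was 4.21-fold lower than its wildtype level (-2.07 ± 0.27 log2, adjusted p = 0.000240) and 2.52-fold lower than in R167Q (-1.33 ± 0.27 log2, adjusted p = 0.00595). Without replicate 1 the differences were -2.18 ± 0.28 and -1.44 ± 0.28 log2 (adjusted p = 0.000247 and 0.00459). Both calls held under the 12 other settings and the 10 omissions of an array.

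Fga, the alpha chain, read 5.45, 4.94, 5.12 and 4.97 log2 in P81S, 5.35, 4.995 and 5.13 in R167Q, and 4.91, 5.80 and 5.51 in wildtype, under the control block's median throughout. Fgg, the gamma chain, read 6.06, 5.39, 5.77 and 5.44 log2 in P81S, 6.25, 6.25 and 5.59 in R167Q, and 5.51, 6.55 and 6.25 in wildtype. The groups overlapped for both. From wildtype, Fga differed by -0.29 ± 0.21 log2 (adjusted p = 0.328, 95% interval -0.75 to 0.17) and Fgg by -0.43 ± 0.27 (adjusted p = 0.254, 95% interval -1.04 to 0.17). Without replicate 1 the differences were -0.40 ± 0.21 log2 for Fga and -0.57 ± 0.27 for Fgg (adjusted p = 0.164 and 0.137). The other probe set of Fga read 5.44, 4.94, 4.82 and 4.93 log2 in P81S. In R167Q it read 4.935, 4.83 and 4.96 log2, and in wildtype 4.54, 4.86 and 5.13. Its groups overlapped as well, and its group mean was lowest in wildtype, so the direction for Fga depends on the probe set. Plrg1, a splicing factor gene next to Fgb, was 1.38-fold lower (-0.47 ± 0.089 log2, adjusted p = 0.00199).

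Amn read 6.33, 6.49, 6.28 and 6.08 log2 in P81S, 6.09, 6.28 and 6.36 in R167Q, and 6.37, 6.66 and 6.34 in wildtype, with overlapping groups and the smallest P81S SD of the members, 0.17 log2. Its difference from wildtype was -0.16 ± 0.15 log2 (adjusted p = 0.452, 95% interval -0.50 to 0.17), and without replicate 1 it was -0.17 ± 0.16 (adjusted p = 0.446). Cubn, the gene of its partner cubilin, read 7.62, 7.29, 6.62 and 5.83 log2 in P81S, 8.16, 7.57 and 7.20 in R167Q, and 8.40, 8.78 and 8.24 in wildtype, and was 3.10-fold below wildtype in P81S (-1.63 ± 0.38 log2, adjusted p = 0.00658). Lrp2, the gene of the endocytic receptor megalin, was 1.93-fold lower (-0.95 ± 0.26 log2, adjusted p = 0.0139). Without replicate 1 the differences were -1.89 ± 0.35 log2 for Cubn and -1.06 ± 0.26 for Lrp2 (adjusted p = 0.00171 and 0.00842). Cubn and Lrp2 are named after their values were seen, as are Folr1, Apoe, Trf, Sar1b, Gata6 and G6pc.

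**Figure D2:**
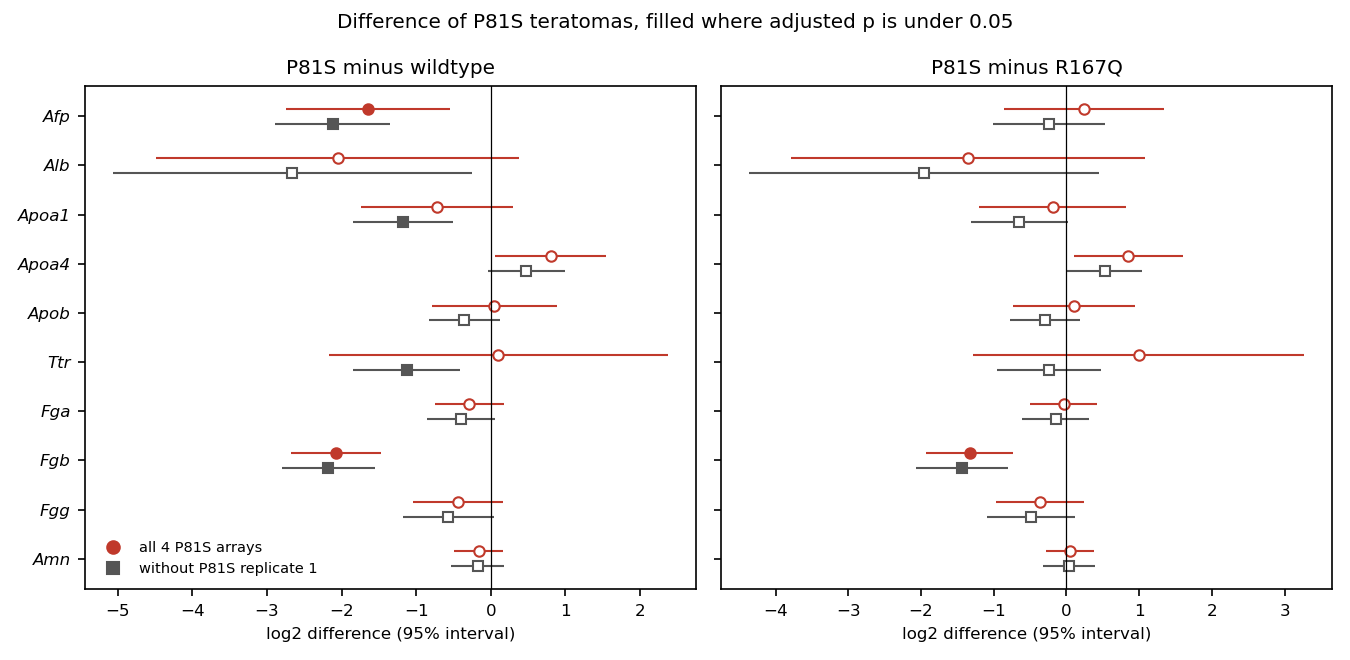
Log2 difference with its 95% interval (x axis) of each member (y axis), for P81S minus wildtype on the left and P81S minus R167Q on the right. Circles use all P81S arrays, squares leave out P81S replicate 1, and filled symbols have an adjusted p under 0.05. Fgb is filled in all fits, and Ttr against wildtype lies at 0.10 with replicate 1 and at -1.13 without it.

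In the comparison of R167Q with the same wildtype arrays, 0 of 10 members were called by limma, against 0.0903% of all genes. An unadjusted p under 0.05 was reached by 2 of 10 (Afp and Fgb), against 9.73% of all genes. With the probe sets used, all 10 differences were negative, with a median of -0.39 log2 beside -0.020 over all genes. The other Fga probe set had its lowest group mean in wildtype. Afp differed by -1.88 ± 0.53 log2 (adjusted p = 0.325) and Fgb by -0.74 ± 0.29 (adjusted p = 0.461). For 2 members, Afp and Ttr, all R167Q arrays lay under all wildtype arrays, as did 12.4% of all genes.

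Between P81S and R167Q, 1 of 10 members was lower (Fgb) and 0 were higher, against 10.1% and 12.4% of all genes; the contrast shares its P81S arrays with the one against wildtype. With replicate 1 left out the counts were 1 and 0, against 11.9% and 14.2%. Afp differed by 0.24 ± 0.50 log2 (adjusted p = 0.791, 95% interval -0.86 to 1.34; -0.23 ± 0.35 log2, adjusted p = 0.682 without replicate 1) and Alb by -1.35 ± 1.10 (adjusted p = 0.441, 95% interval -3.79 to 1.08; -1.96 ± 1.08 log2, adjusted p = 0.223 without replicate 1). Fgb averaged 6.27 ± 0.36 log2 in P81S (SD, n = 4), 7.60 ± 0.42 in R167Q and 8.34 ± 0.46 in wildtype (SD, n = 3 each).

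Tumours of a single genotype differed widely on several members. In wildtype the SD of Afp, 0.79 log2, exceeded that of 99.7% of genes, that of Alb, 1.24, 99.97%, and that of Ttr, 0.67, 99.4%, whereas that of Apoa4, 0.13, exceeded 42.3%. Wildtype replicate 2 was the highest wildtype array for all 10 members, and replicate 1 the lowest for all except Amn. The mean over the members was 7.72, 6.02, 6.69 and 5.81 log2 in P81S, 6.87, 6.73 and 6.39 in R167Q, and 6.69, 7.74 and 7.17 in wildtype. P81S replicates 1 to 4 lay under the lowest wildtype array for 2, 7, 5 and 8 members, and R167Q replicates 1 to 3 for 5, 4 and 5. They lay above the highest wildtype array for 3, 1, 1 and 0 members in P81S and for 0 in each R167Q array. The shares over all genes were not counted for single arrays, so these counts have no background beside them.

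In P81S replicate 1 the members stood above the mean of the other P81S tumours to unequal degrees. As a description of a single tumour, with no test, Ttr was 30.4-fold higher there, Alb 5.39-fold, Afp 3.74-fold, Apoa1 3.55-fold, Apob 3.06-fold and Apoa4 2.46-fold. Fgg, Fga, Fgb and Amn were 1.44-fold, 1.36-fold, 1.33-fold and 1.03-fold higher. The Ttr difference exceeded that of 99.98% of genes and the Amn difference that of 57.3%.

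Markers of several tissues were high in the same tumour, and their part in its member values was not tested. Over all genes, P81S replicate 1 was above every other P81S array for 29.6% and below every one for 32.2%. It was above them for 10 of 11 choroid plexus markers, with a list mean of 7.61 against 6.44 to 6.68 log2 in the other P81S tumours. The count was 10 of 11 for parietal endoderm (mean 10.10 against 8.71 to 9.21 log2 in the other P81S tumours). For intestinal epithelium it was 10 of 15 (6.62 against 5.53 to 6.01 log2 in the other P81S tumours). For kidney genes it was 7 of 9 (6.30 against 5.53 to 5.61 log2 in the other P81S tumours). The kidney list, named kidney proximal tubule, also holds genes of other kidney parts, the filtration slit gene Nphs1 among them. For hepatocyte genes the count was 6 of 13 (5.62 against 4.83 to 5.13 log2 in the other P81S tumours). It was 8 of 14 for endocytic and visceral endoderm genes, 8 of 15 for transcription factors, 16 of 29 for other plasma proteins, 5 of 11 for lipoprotein genes and 3 of 9 for clotting partners. Dsg3, a desmosome gene near Ttr, read 8.45, 4.85, 4.81 and 4.63 log2 in P81S, 5.38, 4.64 and 4.28 in R167Q, and 4.78, 4.87 and 5.34 in wildtype.

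**Figure D3:**
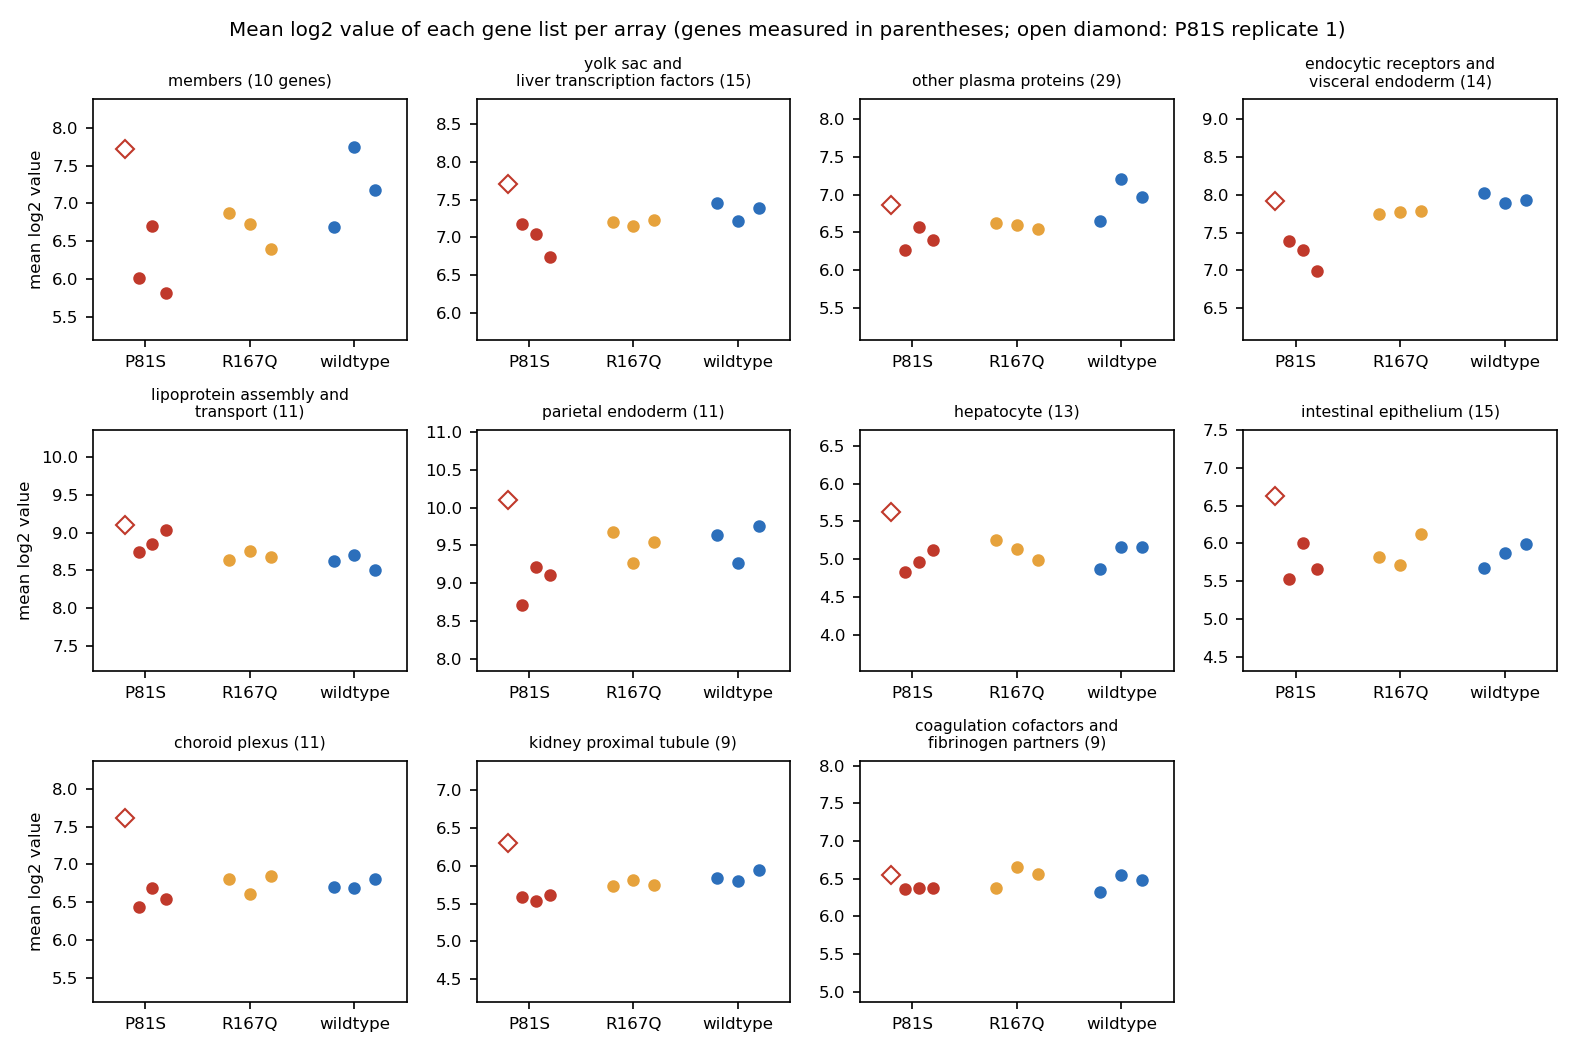
Mean log2 value (y axis) of the members and of each of 10 gene lists in every array, by group (x axis), with P81S replicate 1 as an open diamond. Replicate 1 is the highest P81S array in every panel, at 7.61 log2 for choroid plexus markers.

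Other plasma protein genes gave 2 higher and 8 lower of 29 in P81S against wildtype (2 and 12 without P81S replicate 1), against 17.2% higher and 17.5% lower of all genes (18.3% and 18.6% without it). The list median was -0.43 log2, beside 0.015 over all genes. Vtn, the vitronectin gene, was 2.18-fold lower (-1.12 ± 0.25 log2, adjusted p = 0.00449), and Apom, an apolipoprotein gene, 1.49-fold lower (-0.58 ± 0.13 log2, adjusted p = 0.00463). Itih3, which encodes a hyaluronan-binding heavy chain, was 2.83-fold higher (adjusted p = 0.00351), as was Apoe, an apolipoprotein gene of many tissues, at 1.58-fold. Against R167Q the list gave 0 higher and 2 lower (0 and 3 without replicate 1), where all genes gave 12.4% and 10.1% (14.2% and 11.9%). The lower genes were Vtn (-1.15 ± 0.25 log2, adjusted p = 0.00716) and Rbp4, the gene of the retinol carrier that binds transthyretin (-0.85 ± 0.28 log2, adjusted p = 0.0497), and without replicate 1 Vtn, Rbp4 and Trf. Between R167Q and wildtype, 0 genes were called by limma in any of the 10 lists, where 17 of all 18820 genes (0.0903%) were called.

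Endocytic receptor and visceral endoderm genes gave 1 higher and 5 lower of 14 against wildtype (1 and 7 without P81S replicate 1), against 17.2% and 17.5% of all genes. The list median was -0.46 log2, beside 0.015. Rhox5, an X-linked homeobox gene, read 6.52, 6.54, 6.20 and 5.89 log2 in P81S, 9.15, 7.57 and 9.06 in R167Q, and 9.34, 9.67 and 10.06 in wildtype, without overlap between P81S and the other groups. It was 10.6-fold lower (-3.40 ± 0.35 log2, adjusted p = 7.40e-05; -3.48 ± 0.38 log2, adjusted p = 0.000110 without replicate 1). Ttpa, a vitamin E carrier gene, was 2.10-fold lower (-1.07 ± 0.23 log2, adjusted p = 0.00407), and Entpd2, the gene of an enzyme that splits extracellular ATP, 2.85-fold higher (1.51 ± 0.32 log2, adjusted p = 0.00396). The other lower genes were Cubn, Lrp2 and Folr1, a folate receptor gene, at 2.00-fold. Against R167Q the list gave 1 higher and 2 lower (1 and 3 without replicate 1), where all genes gave 12.4% and 10.1% (14.2% and 11.9%). Entpd2 was higher and Rhox5 and Ttpa were lower, and without replicate 1 Cubn was lower as well.

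Transcription factor genes of yolk sac and liver gave 1 higher and 1 lower of 15 (1 and 3 without P81S replicate 1), against 17.2% and 17.5% of all genes, with a list median of 0.0073 log2 beside 0.015. Nr5a2, a nuclear receptor gene of endoderm and liver, read 6.39, 6.31, 6.46 and 6.22 log2 in P81S, 8.35, 7.34 and 8.73 in R167Q, and 8.50, 8.51 and 9.71 in wildtype. It was 5.90-fold below wildtype in P81S (-2.56 ± 0.35 log2, adjusted p = 0.000274) and 3.46-fold lower than in R167Q (-1.79 ± 0.35 log2, adjusted p = 0.00451), and without replicate 1 the differences were -2.58 ± 0.38 and -1.81 ± 0.38 log2. Prox1, a homeobox gene of liver precursors, was 1.46-fold higher than in wildtype (0.55 ± 0.19 log2, adjusted p = 0.0451). Gata4, an endoderm factor gene, read 7.82, 6.47, 6.31 and 6.25 log2 in P81S, 6.57, 6.47 and 6.60 in R167Q, and 8.37, 7.31 and 7.41 in wildtype, and its difference from wildtype did not pass (-0.99 ± 0.37 log2, adjusted p = 0.0631) until P81S replicate 1 was left out (-1.35 ± 0.25 log2, adjusted p = 0.00159). Without that array the 3 lower genes were Nr5a2, Gata4 and Gata6. Against R167Q the list gave 2 higher and 1 lower (2 and 1 without replicate 1), where all genes gave 12.4% and 10.1% (14.2% and 11.9%). Onecut1 and Prox1 were higher and Nr5a2 was lower in both fits.

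Lipoprotein assembly genes gave 3 higher and 1 lower of 11 (3 and 0 without P81S replicate 1), against 17.2% and 17.5% of all genes, with a list median of 0.089 log2 beside 0.015. Lcat, which esterifies the cholesterol of high-density lipoprotein, read 10.499, 10.56, 10.13 and 11.12 log2 in P81S, 8.14, 9.62 and 9.18 in R167Q, and 7.77, 8.30 and 7.58 in wildtype, highest in P81S. It was 6.48-fold higher (2.70 ± 0.33 log2, adjusted p = 0.000164; 2.72 ± 0.36 log2, adjusted p = 0.000287 without replicate 1). Tm6sf2 and Dgat2, genes of lipid loading and triglyceride synthesis, were 1.75-fold and 1.63-fold higher (adjusted p = 0.0194 and 0.0264). Sar1b, a gene of vesicle budding, was 1.34-fold lower (adjusted p = 0.0360), a call that ended without P81S replicate 1 (adjusted p = 0.0670). Against R167Q the list gave 2 higher and 0 lower (2 and 0 without replicate 1), where all genes gave 12.4% and 10.1% (14.2% and 11.9%). Lcat and Tm6sf2 were higher in both fits.

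The lists of other tissues are set against the same 17.2% higher and 17.5% lower of all genes (18.3% and 18.6% without replicate 1). Parietal endoderm gave 0 higher and 1 lower of 11 (0 and 5 without P81S replicate 1), the lower gene being Lama1, a laminin chain, at 2.92-fold; without replicate 1 the lower genes were Lama1, Lamb1, Lamc1, Pth1r and Thbd. Hepatocyte genes gave 0 higher and 0 lower of 13 (0 and 2 without P81S replicate 1: Cps1 and G6pc), and their list mean was dim, at 4.83 to 5.62 log2 in P81S, 4.99 to 5.25 in R167Q and 4.87 to 5.16 in wildtype, against 8.02 for the median gene. Intestinal epithelium gave 0 higher and 1 lower of 15 (0 and 1 without P81S replicate 1; the homeobox gene Cdx2, 1.40-fold), and choroid plexus 1 higher and 2 lower of 11 (1 and 2 without P81S replicate 1), with the hormone gene Kl 1.65-fold higher and the transporter gene Slc4a5 and the metalloreductase gene Steap1 2.04-fold and 2.08-fold lower. Kidney genes gave 1 higher and 2 lower of 9 (0 and 2 without P81S replicate 1). The transcription factor gene Pax8 and the filtration slit gene Nphs1 were 3.31-fold and 1.88-fold lower. The glucose transporter gene Slc5a2 was 1.34-fold higher (adjusted p = 0.0410, and 0.0727 without replicate 1). Clotting partners gave 0 higher and 1 lower of 9 (0 and 1 without P81S replicate 1). The lower gene was Plrg1, the splicing factor gene next to Fgb, so no clotting gene of that list was called. Against R167Q, all genes gave 12.4% higher and 10.1% lower (14.2% and 11.9% without replicate 1). There, parietal endoderm gave 0 higher and 0 lower (0 and 3 without replicate 1). Hepatocyte genes and intestinal epithelium each gave 0 higher and 0 lower (0 and 1 without replicate 1). Choroid plexus gave 1 higher and 0 lower (1 and 2 without replicate 1). Kidney genes gave 0 higher and 2 lower (0 and 2 without replicate 1). Clotting partners gave 0 higher and 0 lower (0 and 0 without replicate 1). The 25 measured genes nearest to or within the member loci lay up to 2601947 bases away (Klhl29, from Apob). Of these 25, 6 were higher and 3 lower against wildtype, near the 17.2% and 17.5% of all genes.

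The profiles nearest to the members' mean profile over the 10 arrays, by root mean square difference after centring each gene, were those of Slc6a13 (0.23 log2), Olfm4, Kdf1, Itih2, Myo5c, Fabp1, Galnt12 and Pzp (0.31). Slc6a13, a GABA transporter gene, read 8.16, 6.71, 7.25 and 6.90 log2 in P81S, 7.33, 7.17 and 6.77 in R167Q, and 7.59, 8.16 and 7.56 in wildtype. Itih2, another heavy chain gene, read 8.49, 6.48, 6.57 and 5.87 log2 in P81S, 6.95, 6.57 and 6.85 in R167Q, and 6.96, 7.70 and 7.35 in wildtype. Fabp1, a fatty acid carrier gene of liver and gut, read 6.10, 5.19, 5.54 and 4.86 log2 in P81S, 5.07, 5.22 and 5.14 in R167Q, and 5.06, 6.26 and 5.57 in wildtype. These genes were high in P81S replicate 1 and wildtype replicate 2. Of the members, Apoa1 was nearest to the mean profile (0.16 log2) and Alb farthest (1.26).

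**Figure D4:**
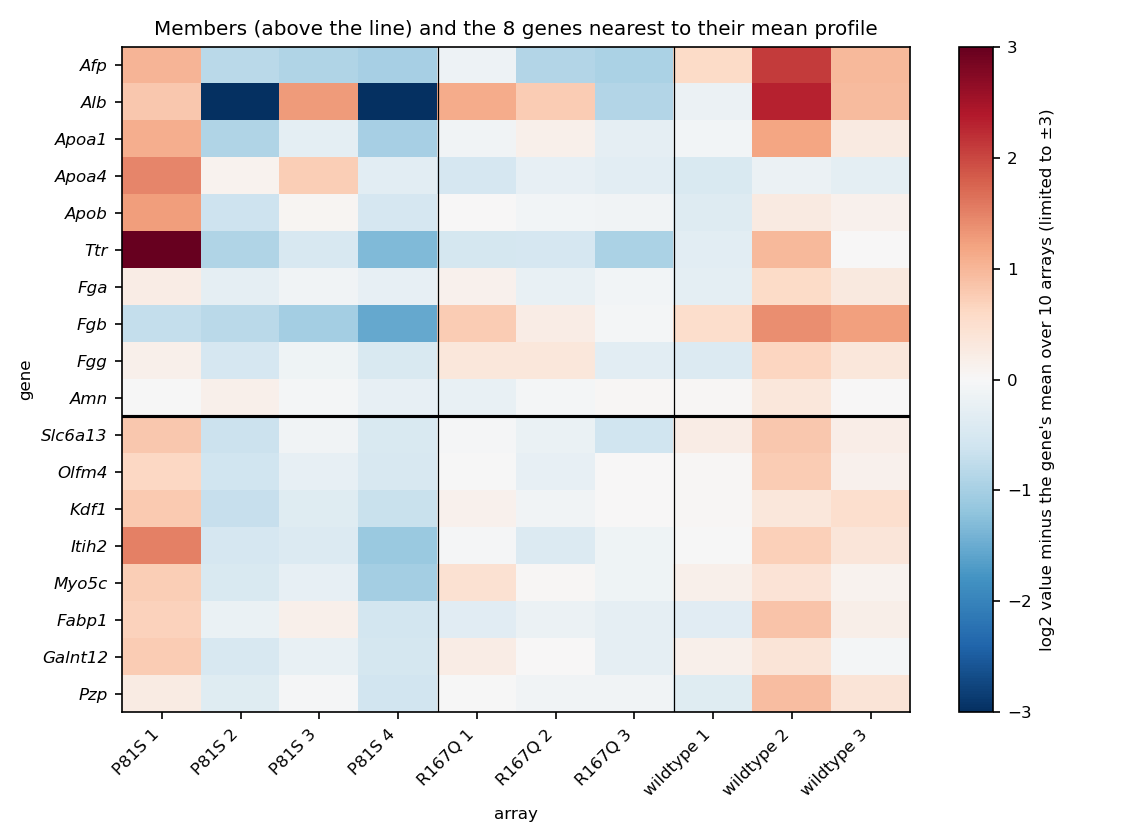
Rows are genes (y axis) and columns arrays (x axis); colour is the log2 value minus the mean of the gene over the 10 arrays, limited at both ends of the scale. Members lie above the black line and the 8 nearest profiles below it. P81S replicate 1 and wildtype replicate 2 are red in most rows, and Fgb is blue in every P81S array.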

How the data were processed

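Total RNA of 10 frozen teratomas was measured on 1-colour Affymetrix arrays. The deposited values are log2 expression per probe set; RMA and Partek are named, without versions or settings, per the submitters' processing notes. No value column was left out. Of 35556 probe sets, 6616 numbered below the first annotated one were taken as a control block; 21218 others have 1 gene, 1881 several and 5841 none, and 21185 matched RefSeq (GRCm38.p6). The probe set with the highest mean stood for each of 18820 genes. Group means were fitted over all arrays in limma 3.58.1 (R 4.3.3; eBayes with trend, 7 residual and 3.85 prior degrees of freedom), after a test on simulated data; errors of differences are SEs. Groups came from sample titles. Alternatives varied normalization, filter, probe sets, variance model, array weights, blocks and arrays; list counts without P81S replicate 1 were added after seeing the data. Named genes are the members, up to 3 per list with the smallest p in each P81S contrast, the 2 nearest measured genes on each side of a member and the 8 nearest profiles. The members and lists were chosen with earlier results of these data known. Some items are not reported here. The number of arrays limits precision.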

Additional observations from a re-analysis of the deposited data

Results flagged for a closer look

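P81S replicate 1 lay far from the other P81S tumours for 2 of the 10 members. Afp read 7.43 log2 there, with a gap to the nearest array of 0.910 of the range of the 4 arrays, and Ttr read 11.4 log2, with a gap of 0.839. The other P81S arrays lay at 5.43 to 5.62 log2 for Afp and 6.04 to 6.90 for Ttr. Chance gives such a gap in about 1 in 20 groups, and 6.43% of all genes had one in P81S.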

How the results depend on the processing

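Fgb kept its direction and call in both P81S contrasts under the 12 other settings and 10 omissions of an array, and 0 members were called between R167Q and wildtype in any of these limma fits. With array weights, 1 member was higher in P81S than in wildtype and 1 than in R167Q (Apoa4 in both). Same-numbered arrays share only a number, and no paired design is stated: their deviations correlated at -0.28 to 0.21, over 0.1 in 2 of 9 cases. With the replicate block, members against wildtype were 1 higher and 1 lower (the Afp difference was -1.45, adjusted p = 0.0709), and 1 was higher against R167Q. Genes called between R167Q and wildtype numbered 17, but 11 with dim genes left out, 26 with only the compared groups and 42 with array weights. Omitting single arrays gave 5073 to 6953 of all 18820 genes, in either direction, for P81S against wildtype, 2328 to 4916 against R167Q (the lowest without R167Q replicate 1) and 5 to 21 for R167Q against wildtype (5 without wildtype replicate 1, 6 without wildtype replicate 2, 8 without wildtype replicate 3, 8 without R167Q replicate 1, 10 without R167Q replicate 2, 7 without R167Q replicate 3). These omissions gave 1 to 4 members lower and 0 to 1 higher against wildtype, and 0 to 1 higher against R167Q. Apart from the fit without P81S replicate 1, the member counts in this paragraph have no share of all genes by direction beside them. They are therefore not read as a result about the members.

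Signs turned for differences that had not passed. Fga against R167Q was 0.043 with averaged probe sets and 0.012 with the replicate block, and Apoa1 against R167Q 0.049 with that block. Array weights gave -0.078 for Apob and -0.81 for Ttr against wildtype, and -0.13 for Afp against R167Q. Omitting single arrays, P81S minus wildtype was -0.35 to 0.27 for Apob and -1.13 to 0.66 for Ttr; P81S minus R167Q was -0.23 to 0.50 for Afp, -0.30 to 0.33 for Apob, -0.24 to 1.54 for Ttr, -0.65 to 0.049 for Apoa1, -0.15 to 0.059 for Fga and -0.029 to 0.12 for Amn; R167Q minus wildtype was -0.11 to 0.030 for Apoa4, -0.26 to 0.073 for Apob and -0.37 to 0.15 for Fgg. Direction and call were kept by 342 of 354 member differences under other settings and by 270 of 300 under omissions; Fga and Fgg were too dim for the fit without dim genes. The causes were not tested.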
